A study of Saccharomyces cerevisiae with 8 samples.

Results

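snR63 is a box C/D small nucleolar RNA (snoRNA) of budding yeast, and the adenosine A2256 of 25S ribosomal RNA is the nucleotide it guides for ribose methylation. Described here are the 1 extended reference of snR63 (snR63_extended in the tables), of 15 references in the deposited tables, and this 1 site of 55 annotated methylation sites, 18 in 18S and 37 in 25S. Both are named by the snoRNA and its annotated target, a rule that uses no measured value. The study asked how RNA helicases bear on snoRNA complexes and on rRNA methylation.

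All libraries were made from whole cell RNA of exponentially growing Saccharomyces cerevisiae cultures, as biological duplicates, labelled replicate A and B in each of 4 groups. The WT group carries no named alteration. The Delta_Dbp3 group is labelled as lacking Dbp3, a DEAD-box RNA helicase of ribosome assembly. The strain of the other groups carries PRP43, the gene of a DEAH-box RNA helicase, behind a GAL promoter, which is active in galactose (PRP43_Gal) and repressed in glucose (PRP43_Glu). Carbon source and promoter state change together between them, the labels give no time of growth in glucose, and they do not tie a medium to WT or Delta_Dbp3. RNA of DBP3 and PRP43 themselves was not analysed here, so the strain labels were not checked against these genes. Libraries held between 5557319 and 14191112 read ends on 18S and 25S together. Delta_Dbp3 and PRP43_Glu libraries carry the same 2 barcodes and the other groups carry others, so barcode and group cannot be told apart in the comparisons of Delta_Dbp3 with WT and of PRP43_Glu with PRP43_Gal.

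Box C/D snoRNAs bind a small set of proteins, among them the methyltransferase Nop1, and direct it to rRNA by base pairing. The stretch that pairs lies just upstream of box D or of an internal box D', and the rRNA nucleotide paired with the fifth base upstream of that box receives the methyl group on its ribose. In RiboMeth-seq, RNA is partly cleaved with alkali and the ends of the fragments are mapped. A methylated ribose resists cleavage of the following bond, so few reads begin or end there. The authors' score compares the read ends at a nucleotide with those its neighbours predict and subtracts that ratio from 1, so a score near 1 stands for near-complete protection and 0 for none.

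In the annotation table used for names, RefSeq assembly R64, SNR63 (YNCD0002C) is a snoRNA gene that lies between RPL31A, of a large-subunit ribosomal protein, and BRE1, of an E3 ligase for histone H2B. The deposited reference is 405 nt long and holds the snoRNA with flanks on both sides. A box C written AUGAUGA was found at positions 80 to 86 and a box D written CUGA at 325 to 328. A variant box C, GUGAUGA, lies at 286 to 292, where an internal box C' may stand, and another CUGA lies at 52 to 55, ahead of box C. Both motif sets were searched on the given strand only, and a match in letters is not a shown box. No file gave the ends of the mature snoRNA, so its mature part was taken as positions 75 to 333, 5 nt beyond the outer boxes, which is 259 nt. That sequence is shown because the read-end values below are counted on it. Capitals mark the box C, the variant box C and the box D.
snR63 mature part: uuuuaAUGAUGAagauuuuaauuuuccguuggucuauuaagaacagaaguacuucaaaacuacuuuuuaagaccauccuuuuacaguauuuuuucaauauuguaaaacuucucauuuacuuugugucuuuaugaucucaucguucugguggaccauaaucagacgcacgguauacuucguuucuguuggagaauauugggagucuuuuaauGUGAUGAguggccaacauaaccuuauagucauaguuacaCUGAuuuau

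The longest unbroken Watson-Crick pairing between snR63 and 25S is 12 nt, between snR63 positions 312 to 323 and 25S positions 2253 to 2264. It ends 1 base before box D. The fifth base upstream of box D is U320, and its partner is A2256, the annotated site. Of the other pairings of at least 9 nt between snR63 and rRNA, 5 lie in 25S and 3 in 18S, so a pairing of 9 nt by itself marks no target. Among them, the pairing of snR63 positions 42 to 50 with 25S positions 2142 to 2150 ends 1 base before the CUGA at 52 to 55. There the fifth base is U47, opposite A2145, which is not an annotated site. That stretch lies ahead of box C, outside the mature part taken here. The guide stretch of snR63 and its target are printed because the methylated nucleotide is read off them. Capitals mark the 12 paired bases in the first pair of sequences and A2256 in the last.
snR63 positions 306 to 328: ccuuauAGUCAUAGUUACacuga
25S positions 2246 to 2266: ggcgggaGUAACUAUGACUcu
25S positions 2246 to 2266 with the methylated base: ggcgggaguaAcuaugacucu

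At A2256, protection was near complete in WT and in PRP43_Gal, fell in PRP43_Glu, and was lower in Delta_Dbp3 by an amount that did not pass the test. The score was 0.927 and 0.987 in WT replicates A and B. Delta_Dbp3 replicates A and B scored 0.912 and 0.834. The PRP43_Gal replicates scored 0.982 and 0.984, and those of PRP43_Glu 0.832 and 0.806, in the same order. Both PRP43_Glu libraries lay below all other libraries, and each Delta_Dbp3 library was under each WT library, although Delta_Dbp3 replicate A and WT replicate A were only a small step apart. Such separation was common. The Delta_Dbp3 libraries were both under the WT libraries at 69.1% of the 55 sites, and the PRP43_Glu libraries were both under the PRP43_Gal libraries at 70.9%.

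**Figure D1:**
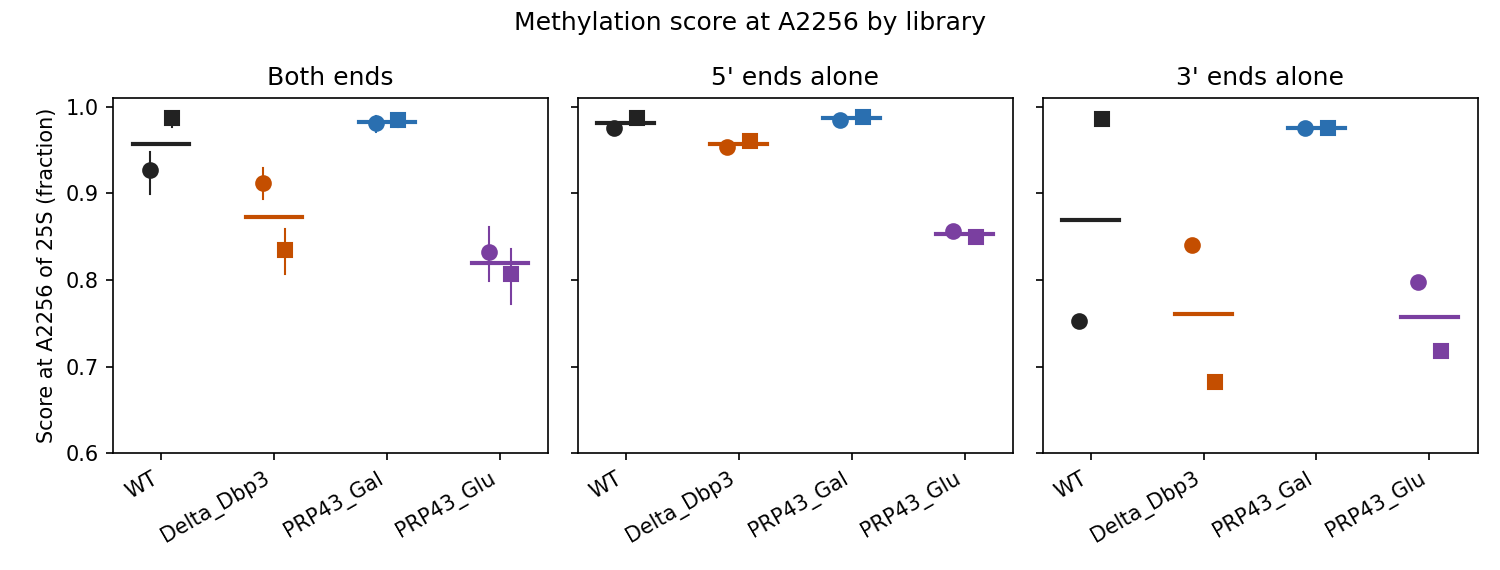
Methylation score at A2256 of 25S (fraction; vertical axis from 0.6) in each library of the 4 groups, from both read ends, from 5' ends alone and from 3' ends alone. Circles are replicate A, squares replicate B, horizontal bars the mean of 2 libraries, and vertical lines in the left panel exact 95% Poisson intervals. PRP43_Glu is the lowest group in the left panel (0.832 and 0.806), and the WT libraries are apart mainly from 3' ends (0.753 and 0.986).

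The scores rest on few read ends at the site itself. In WT replicates A and B, 38 and 12 read ends were counted at A2256 where the neighbours predicted 518 and 899. In Delta_Dbp3 there were 100 against 1142 and 162 against 976. In PRP43_Gal there were 17 against 922 and 24 against 1508, and in PRP43_Glu 115 against 686 and 149 against 770. The exact 95% Poisson intervals of the score, which cover counting error at the site alone and treat reads without molecular identifiers as independent, ran from 0.899 to 0.948 and from 0.977 to 0.993 in WT. They ran from 0.893 to 0.929 and from 0.806 to 0.859 in Delta_Dbp3. The WT libraries therefore differed from each other by more than counting error, as did the Delta_Dbp3 libraries, while the intervals of both libraries overlapped within PRP43_Gal and within PRP43_Glu (0.799 to 0.862 and 0.773 to 0.836). The interval of WT replicate A also overlapped that of Delta_Dbp3 replicate A.

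Counts were also scaled to 1000000 read ends on 18S and 25S of the same library, a unit written EPM here. A2256 held 3.11 and 1.09 EPM in WT and 8.89 and 16.7 in Delta_Dbp3. It held 1.37 and 1.69 in PRP43_Gal, and 20.7 and 21.1 in PRP43_Glu. Every Delta_Dbp3 and PRP43_Glu library held more ends at the site than any WT or PRP43_Gal library. EPM, unlike the score, takes no account of the neighbours. Both Delta_Dbp3 libraries lay above both WT libraries at 21.3% of the 25S positions tested and below at 18.2%. The adjacent C2257 was higher as well, with 37.1 and 49.8 EPM in WT and 153 and 115 in Delta_Dbp3. At G2253 the groups overlapped (39.1 and 62.5 against 38.7 and 50.6). No such share was computed for PRP43_Glu.

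The dip at A2256 was confined to that nucleotide in the window of 6 nt on each side. Among its 12 neighbours the lowest count of read ends was 182 and 525 in the WT libraries and 370 and 438 in Delta_Dbp3. It was 521 and 599 in the PRP43_Gal libraries, against 391 and 439 in PRP43_Glu. A2256 stood below the lowest neighbour in all 8 libraries. The highest score of any neighbour was 0.587, at G2253 in Delta_Dbp3 replicate A, the first base of the pairing with snR63, against 0.912 at A2256 in that library. G2253 had the highest neighbour score in 5 of the 8 libraries.

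**Figure D2:**
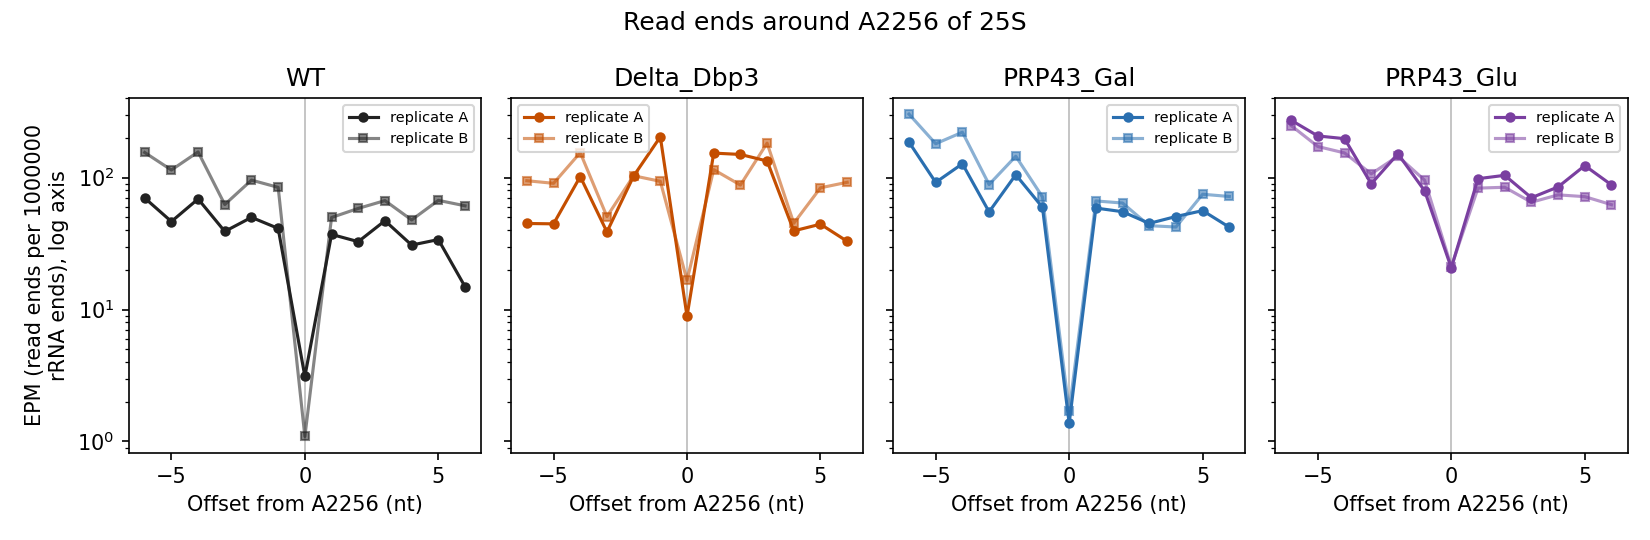
Read ends per 1000000 rRNA ends (EPM, log axis) at A2256 (offset 0) and the 6 nucleotides on each side, 1 panel per group and 1 line per library. The dip at offset 0 reaches 1.09 to 3.11 in WT and PRP43_Gal, 8.89 and 16.7 in Delta_Dbp3, and 20.7 and 21.1 in PRP43_Glu.

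Reads have a 5' end and a 3' end, and the sides gave different pictures of A2256. The 5' ends alone gave a score of 0.975 and 0.987 in WT and 0.953 and 0.961 in Delta_Dbp3. They gave 0.984 and 0.989 in PRP43_Gal, against 0.857 and 0.849 in PRP43_Glu. On this side the duplicates lay close together, and Delta_Dbp3 stood near WT while PRP43_Glu stood apart. The 3' ends alone gave 0.753 and 0.986 in WT and 0.840 and 0.683 in Delta_Dbp3. They gave 0.975 and 0.976 in PRP43_Gal, against 0.798 and 0.718 in PRP43_Glu. On that side WT replicate A lay below Delta_Dbp3 replicate A, so WT and Delta_Dbp3 overlapped. Of the 38 read ends at A2256 in WT replicate A, 28 were 3' ends, and of the 162 in Delta_Dbp3 replicate B, 141 were 3' ends. In WT replicate A, 3' ends were the minority at all 12 neighbours. In Delta_Dbp3 replicate B they were the minority at the 6 upstream neighbours and the majority at all 6 downstream ones, with 4147 3' against 1740 5' ends there. In Delta_Dbp3 replicate A they were the majority at 4 of the 6 downstream neighbours, and in PRP43_Glu at 6 and 4 of them. A downstream majority was not confined to those groups. It held at 5 of the 6 in PRP43_Gal replicate B, against 0 in PRP43_Gal replicate A and 1 in WT replicate B.

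For Delta_Dbp3 against WT, the mean score was 0.873 ± 0.0554 (SD, n = 2 libraries here and for all later SDs) against 0.957 ± 0.0424. The difference was -0.0834 (SE 0.0327, 95% interval -0.166 to -0.000715), and it did not pass limma's moderated test over the 55 sites (adjusted p = 0.134). In this comparison 27.3% of the 55 sites were called lower and 0 higher, and the median difference over all sites was -0.0327. At 20 sites the difference was more negative than at A2256. Without Delta_Dbp3 replicate A the difference was -0.123 and passed (adjusted p = 0.0406), and on log2 odds it passed as well (-2.08, adjusted p = 0.0453). From 5' ends alone it was -0.0241 (adjusted p = 0.165) and from 3' ends alone -0.108 (adjusted p = 0.622).

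For PRP43_Glu against PRP43_Gal, the mean score fell to 0.819 ± 0.0183 from 0.983 ± 0.00178. The difference was -0.163 (SE 0.0327, 95% interval -0.246 to -0.0807), with an adjusted p of 0.00769 in limma. Of the 55 sites, 56.4% were called lower in this comparison and 0 higher, with a median difference of -0.135, and 23 sites were more negative than A2256. The call at A2256 was thus one of many in this comparison. From 5' ends alone the fall was -0.134 (adjusted p = 0.000229). From 3' ends alone it was -0.218 and did not pass (adjusted p = 0.129).

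Against WT, whose tables were made with other additional references than those of the PRP43 strain, strain, medium and table cannot be told apart. PRP43_Gal differed from WT by 0.0261 (95% interval -0.0566 to 0.109, adjusted p = 0.814 in limma), where 0% of sites were called in either direction. The sign of that small difference turned without WT replicate A, to -0.00384. PRP43_Glu stood below WT by -0.137 (adjusted p = 0.0128), where 69.1% of sites were called lower. This call was lost without WT replicate B (-0.107, adjusted p = 0.0640), without PRP43_Glu replicate B (-0.124, adjusted p = 0.0669), and from 3' ends alone (-0.111, adjusted p = 0.342).

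The difference between the change in the PRP43 strain and that in Delta_Dbp3 was -0.0800 at A2256 (95% interval -0.197 to 0.0370) and did not pass in limma (adjusted p = 0.235). It passed at 34.5% of sites in the direction of a larger fall in PRP43_Glu and at 7.27% in the other. From 5' ends alone it was -0.109 and passed (adjusted p = 0.00275). Directly between PRP43_Glu and Delta_Dbp3, a comparison added after the values were seen, the difference was -0.0539 (95% interval -0.137 to 0.0288, adjusted p = 0.197), with 49.1% of sites called lower and 10.9% higher. It passed without Delta_Dbp3 replicate B (-0.0930, adjusted p = 0.0465) and from 5' ends alone (-0.104, adjusted p = 0.000633).

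The groups were therefore ordered PRP43_Gal, WT, Delta_Dbp3 and PRP43_Glu by mean score. No neighbours in that order differed beyond the limma threshold, while the ends of the order did. Among the 55 sites A2256 ranked 32 from the highest in WT and also 32 in Delta_Dbp3. It ranked 2 in PRP43_Gal and 28 in PRP43_Glu, where its mean was the median of all sites. In WT the median over sites was 0.964, close to the 0.957 of A2256.

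Within 100 nt of A2256 in 25S there are 7 other annotated sites, none of them guided by snR63. In Delta_Dbp3 1 of the 7 was called lower than in WT and 0 higher, with a median difference of -0.0211, against 27.3% of all 55 sites called lower and a median of -0.0327. That site was Cm2197, which snR76 is known to guide, with 0.920 and 0.816 in WT against 0.737 and 0.715 in Delta_Dbp3. Its libraries did not overlap and the difference was -0.142 (adjusted p = 0.0431 in limma), but the call was lost in most alternatives, among them each removal of a library except WT replicate B (adjusted p = 0.119 without WT replicate A). Its sign turned from 3' ends alone (0.0342, adjusted p = 0.694).

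The closest annotated sites, Am2220 upstream and Am2280 and Am2281 downstream of A2256, showed little difference in Delta_Dbp3. Am2220, which snR47 is known to guide, had 0.977 and 0.972 in WT and 0.958 and 0.959 in Delta_Dbp3 (adjusted p = 0.351). Am2280 had means of 0.976 ± 0.000540 and 0.980 ± 0.0147 (adjusted p = 0.901), and Am2281 had 0.964 ± 0.0260 and 0.978 ± 0.000361 (adjusted p = 0.661). Both Am2220 libraries of Delta_Dbp3 lay below WT, while the groups overlapped at Am2280 and Am2281. At the remaining sites the adjusted p was 0.657 at Gm2288, 0.215 at Cm2337 and 0.755 at Um2347, and Cm2337 passed on log2 odds (-1.70, adjusted p = 0.0202).

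In PRP43_Glu 2 of the 7 were called lower than in PRP43_Gal and 0 higher, with a median difference of -0.0432. This share lies under the 56.4% of all 55 sites called lower, whose median was -0.135. Am2220 had 0.971 and 0.979 in PRP43_Gal and 0.817 and 0.803 in PRP43_Glu, a fall of -0.165 (adjusted p = 0.000155 in limma), close to that at A2256. Um2347, which snR65 is known to guide and which is partly methylated in every group, had 0.654 and 0.765 in PRP43_Gal and 0.321 and 0.313 in PRP43_Glu (adjusted p = 0.00337). At both sites the libraries of the groups did not overlap. Um2347 passed from neither 5' ends alone (adjusted p = 0.112) nor 3' ends alone (adjusted p = 0.141). Am2281, with 0.958 and 0.921 against 0.897 and 0.895, and Gm2288 did not pass (adjusted p = 0.112 each), although Am2281 passed from 5' ends alone (-0.0320, adjusted p = 0.0412) and Gm2288 without PRP43_Glu replicate B (-0.0982, adjusted p = 0.0165) and with edgeR on read ends (adjusted p = 0.0498). Am2280, Cm2197 and Cm2337 had adjusted p-values from 0.294 to 0.788.

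By the pattern of scores over the 8 libraries, after each site was centred on its own mean, the 5 sites most like A2256 were Gm805 of 25S (root mean square difference 0.0277), Am796 (0.0361) and Am28 (0.0386) of 18S, Gm2815 of 25S (0.0414) and Am649 of 25S (0.0459). The median over the 54 other sites was 0.0747. All sites share the same libraries and depth, and the likeness is a description only. Am649 is known as a target of the intron-encoded snoRNA U18. Of the 7 sites guided by U18, U24 and snR60, whose references stand beside snR63 in the tables, 6 were called lower in Delta_Dbp3 and 7 in PRP43_Glu, against 27.3% and 56.4% of all 55 sites. Not all of these calls were stable. The call was lost in 3 of 18 alternatives at Cm1437 in Delta_Dbp3 and in 4 of 18 at Gm908 in PRP43_Glu. At Am817 it was lost in 1 of 18 in each comparison. Am1449, guided by U24, had 0.974 ± 0.000108 in WT and 0.730 ± 0.00158 in Delta_Dbp3. The call of Gm1450, also guided by U24, in Delta_Dbp3 (adjusted p = 0.0431 in limma) was lost in 10 of 18 alternatives, among them the fits without either WT replicate (adjusted p = 0.168 without replicate A and 0.149 without replicate B).

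The snoRNA itself was read in the WT and Delta_Dbp3 tables alone. snR63 in the PRP43 strain is not analysed here. Fragments of snR63 of 20 to 40 nt were captured along with those of rRNA, and their ends are given in EPM as well. More snR63 fragments and fewer rRNA fragments cannot be told apart in such a value. In WT replicates A and B, snR63 held 2098 and 2328 read ends, or 172 and 212 EPM. In Delta_Dbp3 it held 3024 and 2612, or 268.7 and 268.8 EPM. Both Delta_Dbp3 libraries lay above both WT libraries, and the Delta_Dbp3 libraries were nearly equal.

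The means were 192 ± 28.2 in WT and 269 ± 0.0534 EPM in Delta_Dbp3, a ratio of 1.40 (0.49 on the log2 scale). With 2 libraries against 2 the exact two-sided permutation test gave p = 0.333, the smallest it can give. snR63 was the single one of the 6 shared references whose groups were apart in this direction, 16.7% of them. edgeR on the totals of those 6 references gave a log2 fold change of 0.49 (SE 0.34) for snR63, which did not pass (adjusted p = 0.533). The log2 ratio was 0.53 when scaled to read ends on 25S alone, 0.43 when scaled to 18S alone and 0.44 without the 5 highest positions.

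**Figure D3:**
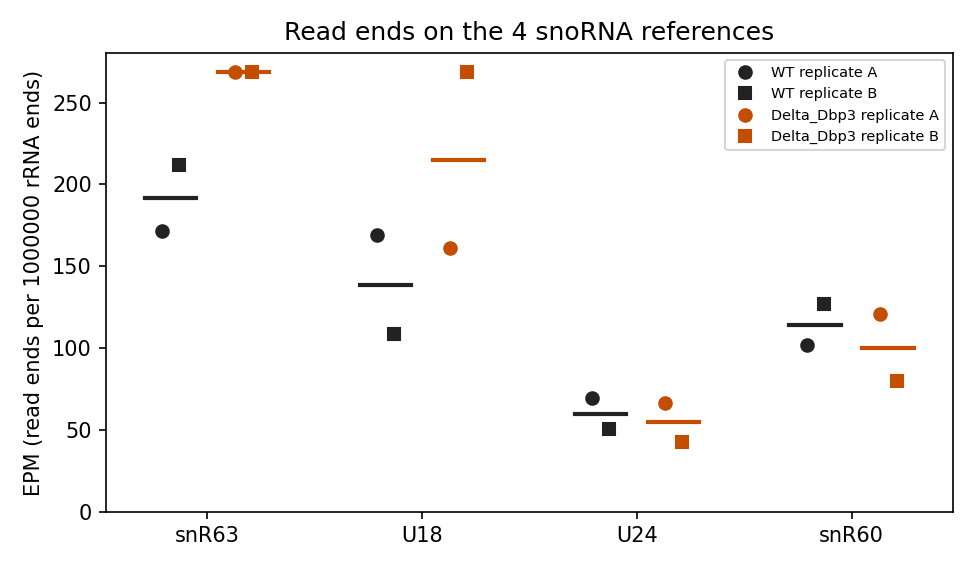
Read ends per 1000000 rRNA ends (EPM) on the 4 snoRNA references in each WT and Delta_Dbp3 library. Circles are replicate A, squares replicate B and bars the mean of 2 libraries. For snR63 both Delta_Dbp3 libraries (268.7 and 268.8) lie above both WT libraries (172 and 212), and for U18, U24 and snR60 the groups overlap. Heights of different snoRNAs are not comparable, since their lengths differ.

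The other box C/D snoRNAs in these tables did not move as 1 block. U18, encoded in an intron, had 169 and 109 EPM in WT and 161 and 269 in Delta_Dbp3. U24, also encoded in an intron, had 69.3 and 50.6 against 66.6 and 42.6. snR60 had 102 and 127 against 121 and 79.8. The WT and Delta_Dbp3 libraries overlapped for each of the 3, and the ratios of the means were 1.55, 0.912 and 0.878. As a share of the read ends on all 4 snoRNA references, a measure that leaves rRNA out, snR63 took 33.6% (95% Wilson interval 32.4 to 34.7) and 42.5% (41.2 to 43.9) in WT, and 43.5% (42.3 to 44.7) and 40.7% (39.5 to 41.9) in Delta_Dbp3. By that measure the groups overlapped, with WT replicate B above Delta_Dbp3 replicate B.

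Nearly all read ends lay in the mature part. It held 99.8% and 99.6% of snR63 read ends in WT and 99.9% and 99.6% in Delta_Dbp3, with means of 191 ± 27.9 and 268 ± 0.496 EPM and a ratio of 1.40 (exact permutation p = 0.333). The 5' flank of 74 nt held 4 and 9 read ends in WT and 4 and 11 in Delta_Dbp3, or 0.328 and 0.818 against 0.355 and 1.13 EPM. These libraries overlapped (exact permutation p = 0.667). Part of these ends lay directly before the assumed mature start. Position 74 held 0.246 and 0.273 EPM in WT and 0.0889 and 0.206 in Delta_Dbp3. Position 73 held 0.267 EPM in Delta_Dbp3 replicate A. Ends there need not come from extended forms. The 3' flank of 72 nt held 0 read ends in all 4 libraries, which allows up to 0.246 and 0.273 EPM in WT and 0.267 and 0.309 in Delta_Dbp3 at 3 counts per library. Extended forms of snR63 were thus at or near the limit of detection in both groups, and a difference between them was not detectable at this depth. The last positions with a read end were 328 in both WT libraries, the last base of box D, and 329 and 330 in Delta_Dbp3.

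**Figure D4:**
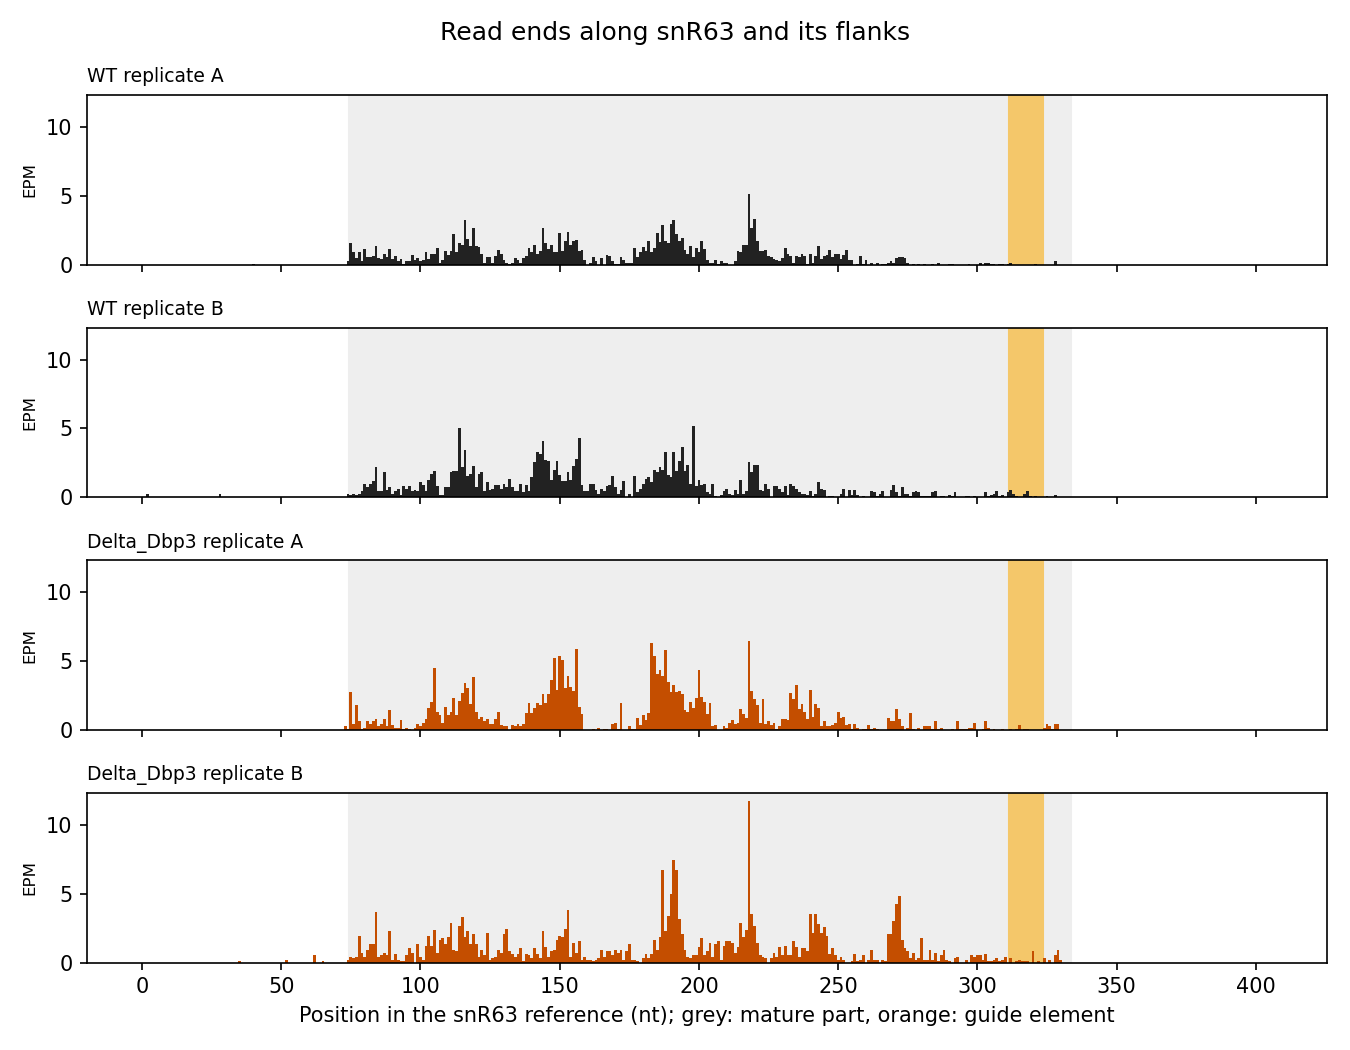
Read ends per 1000000 rRNA ends (EPM) at each position of the 405-nt snR63 reference, 1 panel for each WT and Delta_Dbp3 library. The mature part (positions 75 to 333) is shaded grey and the guide stretch for A2256 (312 to 323) orange. Few ends lie outside the mature part, and few lie on the guide stretch in any library.

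Read ends were spread unevenly along the snoRNA, and the 3' part was sparsely read in all 4 libraries. The mature part was divided into 5 stretches of 51 or 52 nt, a division made after the profile was seen, so its values are given with no test. In the first stretch, with box C, the means were 49.8 ± 8.13 EPM in WT and 58.0 ± 2.16 in Delta_Dbp3, a ratio of 1.16. In the next they were 53.4 ± 17.97 and 57.9 ± 17.47, with overlapping libraries. In the middle stretch, positions 179 to 229, they were 64.5 ± 2.22 and 94.6 ± 2.87, a ratio of 1.47.

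In the stretch from 230 to 281, WT had 21.9 and 16.9 EPM and Delta_Dbp3 37.9 and 56.9, a ratio of the means of 2.45. In the last stretch, with the variant box C, the guide and box D, WT had 1.88 and 6.18 and Delta_Dbp3 7.02 and 13.1, a ratio of 2.49. That ratio rested on few read ends and was 1.62 without WT replicate A and 5.33 without WT replicate B. As in the first and middle stretches, the libraries did not overlap in these stretches. No share over stretches of other references was computed. The duplicates of Delta_Dbp3 were less alike here than in their totals. As a share of all snR63 read ends, the stretch from 230 to 281 held 12.7% and 7.99% in WT and 14.1% and 21.2% in Delta_Dbp3. By that measure the last stretch overlapped, with 1.10% and 2.92% against 2.61% and 4.86%. From the first base of the guide to the end of box D, 6 and 23 read ends were counted in WT and 24 and 28 in Delta_Dbp3, all of them 3' ends. The median position of a read end was 179 and 157 in WT and 183 and 191 in Delta_Dbp3.

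Nucleotide by nucleotide, 200 of the 405 positions of snR63 had enough read ends to be tested, among 5656 positions of rRNA and snoRNA references. With edgeR's quasi-likelihood test 0 of the 200 were called, as were 0% of all positions tested in either direction. DESeq2 also called 0 of the 200 against 1.08% of all positions. Its filter can leave positions with few read ends without an adjusted p, and any such position was counted as not called. At an unadjusted p under 0.05 in edgeR there were 18, of which 16 were higher in Delta_Dbp3, 8% of the 200 against 5.98% of all positions. In simulations of this comparison over about as many positions (5633 and 5644), edgeR recovered 0% of 4-fold changes and 89.5% of 16-fold changes. Changes of the size seen in the totals were thus below what it could call at single nucleotides. The changed positions were drawn from all references, mostly 18S and 25S (1800 and 3396 of the 5656 positions). Recovery at the sparsely read snR63 positions was not simulated apart and may be lower. In snR63 a log2 fold change of 5.93, at U329, was not called.

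Both Delta_Dbp3 libraries lay above both WT libraries at 51 of the 200 positions, or 25.5%, against 22.9% of all positions tested. They lay below at 20, or 10%, against 16.2%. The median log2 fold change over the 200 was 0.45 and that over all positions 0.16, and with TMM scaling these were 0.35 and 0.04. Without that scaling the median was 0.96 for U18, -0.30 for U24 and -0.10 for snR60. Both Delta_Dbp3 libraries lay above both WT libraries at 38.6%, 13.3% and 15.2% of their tested positions, in the same order. U18 thus stood above snR63 in both measures. Neighbouring positions share reads and are not independent.

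The position with the smallest p was U329, just past box D, with 0 read ends in both WT libraries and 5 and 9 in Delta_Dbp3 (adjusted p = 0.391 in edgeR). A241 had 2 and 1 read ends in WT and 11 and 21 in Delta_Dbp3, and U271 had 6 and 4 against 17 and 41. U177 went the other way, with 15 and 17 in WT and 1 and 2 in Delta_Dbp3. At each of the 4 the libraries were apart, and the adjusted p lay at 0.391 or 0.411. U268, G293, G272, U204, C212 and G276, the others among the 10 smallest p-values, all had more ends in Delta_Dbp3, with adjusted p from 0.391 to 0.419. U329 and G293, with 0 read ends in both WT libraries, reached the minimum of 10 read ends through Delta_Dbp3 alone. U177 reached it through WT. The counts of higher and lower positions above include such positions.

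The guide RNA and its site were measured together in 4 libraries. WT replicates A and B had 172 and 212 EPM of snR63 beside A2256 scores of 0.927 and 0.987. Delta_Dbp3 replicates A and B had 268.7 and 268.8 beside 0.912 and 0.834. The group with more snR63 read ends had the lower scores, while within WT the library with more had the higher score. With 4 libraries no correlation was computed.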

How the data were processed

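RiboMeth-seq libraries of 20 to 40 nt fragments were sequenced on the Ion Proton platform, per the labels' protocols. Use of cutadapt 2.0 and Bowtie2 2.3.4.1 is listed, per the submitters' processing notes, without settings. The deposited counts give 5', 3' and summed read ends per nucleotide, per the file headers. The deposited score, a fraction, was recomputed from them (6 neighbours a side, weights 1 to 0.5; largest difference 5.0e-10 over 41376 values). The authors' group means imply a barcode correction at 6 of 220 values, which was kept; none is at A2256.

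Scores at 55 sites were tested with limma 3.58.1 over 8 libraries, adjusted by Benjamini-Hochberg within each comparison at 0.05. The 1.31 prior and 4 residual degrees of freedom are few, and a permutation test of 2 against 2 libraries cannot go below p = 0.333. snR63 totals were scaled to 1000000 read ends on 18S and 25S, and positions were tested with edgeR 4.0.16 (quasi-likelihood, at least 10 read ends over the 4 libraries, DESeq2 1.42.0 as an alternative). Simulated data gave 48.8% recovery of site differences of 0.1 and 88.6% of 0.3 for Delta_Dbp3 against WT. Alternatives were other scales, moderation, neighbours, scalings and filters, 5' or 3' ends alone, a replicate block, count tests and each library left out. Guide assignments other than that of snR63 are general knowledge. The named items are snR63 and the references beside it, A2256 and its window, sites within 100 nt, sites of U18, U24 and snR60, the 5 most like sites and the 10 positions with the smallest p. Members and lists were chosen with earlier results of these data known.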

Additional observations from a re-analysis of the deposited data

Results flagged for a closer look

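The difference between the change in the PRP43 strain (PRP43_Glu minus PRP43_Gal) and the change in Delta_Dbp3 (Delta_Dbp3 minus WT) passed limma's test at 10 of the sites named beside A2256. These 10 are among the 34.5% of all sites that passed in the direction of a larger fall in PRP43_Glu and the 7.27% that passed in the other. Near A2256 the difference in score was -0.149 at Am2220 and -0.362 at Um2347. At sites of U18 and U24 it was -0.0917 at Am649, -0.227 at Cm1437 and -0.258 at Am1449. At sites of snR60 it was 0.124 at Am817 and 0.248 at Gm908, so there the fall was larger in Delta_Dbp3. Among the sites most like A2256 it was -0.112 at Am796, -0.0583 at Am28 and -0.0869 at Gm2815, beside Am649. A2256 itself did not pass (-0.0800, adjusted p = 0.235).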

How the results depend on the processing

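For Delta_Dbp3 against WT at A2256 the score difference became a call on log2 odds (-2.08), and with a library left out it ranged from -0.123 to -0.0443. For PRP43_Glu against PRP43_Gal the range was -0.176 to -0.150, and the call was lost from 3' ends alone (-0.218). PRP43_Gal against WT ranged from -0.00384 to 0.0561, reversed without WT replicate A. PRP43_Glu against WT ranged from -0.167 to -0.107 and was lost from 3' ends alone (-0.111). The difference of both changes (-0.119 to -0.0409) and PRP43_Glu against Delta_Dbp3 (-0.0930 to -0.0147) became calls from 5' ends alone (-0.109 and -0.104). Cm2197 turned to 0.0342 from 3' ends alone in Delta_Dbp3. The log2 ratio of snR63 totals ranged from 0.34 to 0.65 and that of the mature part from 0.35 to 0.64, the highest without WT replicate B; that of the 5' flank, from few read ends, ranged from -0.69 to 1.18 and was -1.41 from 3' ends alone. The 3' flank, with 0 read ends, gave no ratio. In snR63, 0 nucleotides were called in edgeR or DESeq2 under any alternative that kept all libraries. The filter of a mean of at least 50 read ends left 1 snR63 position to test, so its 0 says little. The main fits did not pair libraries by replicate letter. Correlations between groups of the deviations of replicate A ran from -0.276 to 0.327 over 55 sites, and pairing was not tested. With a replicate block in limma the adjusted p at A2256 was 0.192 for Delta_Dbp3 against WT (-0.0834). It was 0.0170 for PRP43_Glu against PRP43_Gal (-0.163), and no call changed at A2256. The cause of these changes was not tested. Removing the barcode correction, an alternative added after the data were seen, changed no call at A2256. The few read ends at A2256 and on the guide stretch of snR63 limit what these data can show. On the guide stretch fragment size also keeps 5' ends from being counted.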
